A study of Mus musculus with 8 samples.

Results

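The 9 genes described here lie on mouse chromosome 7 between 0.4 and 10 Mb from Tph1 and differ between genotypes in dorsal skin: Ush1c, Htatip2, Zfp473, Cpt1c, Fut2, Tubgcp5, Dkkl1, Gm15545 and Gm10252. They were taken by symbol from a list of genes that passed the comparison of the genotypes, so their difference between genotypes is given as a description and carries no test. They are 9 of the 55488 genes in the tables and 9 of the 172 genes tested in that stretch of chromosome 7. All 9 passed the filter on low counts, which is no support for them. Ush1c and Zfp473 would not have passed without their knockout libraries, nor Gm10252 without its wild-type libraries, the group where each was high. The groups were 4 dorsal skin libraries from TPH1 knockout mice and 4 from wild-type (WT) mice, all aged 3 months, profiled by bulk RNA-seq of total RNA. The labels name no strain, sex, litter, backcross or design of the knockout allele, and nothing in them ties a library to its own animal. A p-value here therefore reflects how much the 4 libraries of a group vary, which may be technical. Knockout libraries are named KO replicates 1 to 4 and wild-type libraries WT replicates 1 to 4.

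Tph1 encodes the tryptophan hydroxylase that makes serotonin outside the brain. When a gene is disrupted in embryonic stem cells of one inbred strain and the allele is crossed into another, the DNA on either side of the target can stay that of the stem cell strain, and genes there can then differ in sequence as well as in activity. The reads of such genes are aligned to a reference of a single strain. The labels do not say whether this applies to these mice, and the tables give values per gene and not per base, so a difference in local sequence and a difference in transcription cannot be told apart for these genes. Bulk tissue adds a further limit: fewer cells of a type and less RNA per cell cannot be told apart.

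Of the 9 genes, 3 share at least 200 bases with another transcript at 90% identity or more: Zfp473, Gm15545 and Gm10252. The sequences shown are from Gm10252, a predicted gene on the plus strand at chr7:45459469-45460300 (GRCm38, GENCODE M21), and a near-identical gene on another chromosome. Its first bases overlap the 5′ end of Ftl1, the ferritin light chain gene on the opposite strand, and they recur almost unchanged on chromosome 13 in Ftl1-ps1 and in the antisense gene Gm47428. Over 310 aligned bases Gm10252 and Gm47428 differ at 1 base, T221C, counted from 1 at the 5′ end of Gm10252, which is position 45459689 of chromosome 7. Over 298 aligned bases Ftl1-ps1 differs at the same base. The stretch around it is shown in the orientation of Gm10252, with the differing base in capitals.
Gm10252: ggtcctaggagcTgaaggcagcgag
Gm47428: ggtcctaggagcCgaaggcagcgag

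The promoters of the 3 genes with the largest differences among the protein-coding genes are shown next, from 250 bases before to 50 after the RefSeq start (GRCm38.p6), 5′ to 3′ on the strand of the gene. Ush1c is at chr7:46238441-46238740 on the minus strand, Htatip2 at chr7:49758856-49759155 on the plus strand and Zfp473 at chr7:44748342-44748641 on the minus strand. Capitals mark matches on either strand to the TATA box (TATAAA), the CCAAT box (CCAAT), the GC box (GGGCGG) and the AP-1 site (TGANTCA), 4 motifs that do not overlap one another here.
Ush1c: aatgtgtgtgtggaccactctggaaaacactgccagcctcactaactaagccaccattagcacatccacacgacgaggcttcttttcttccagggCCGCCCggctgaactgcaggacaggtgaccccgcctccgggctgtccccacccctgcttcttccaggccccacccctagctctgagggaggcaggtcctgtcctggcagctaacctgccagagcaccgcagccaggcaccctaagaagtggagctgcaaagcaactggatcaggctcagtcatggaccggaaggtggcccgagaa
Htatip2: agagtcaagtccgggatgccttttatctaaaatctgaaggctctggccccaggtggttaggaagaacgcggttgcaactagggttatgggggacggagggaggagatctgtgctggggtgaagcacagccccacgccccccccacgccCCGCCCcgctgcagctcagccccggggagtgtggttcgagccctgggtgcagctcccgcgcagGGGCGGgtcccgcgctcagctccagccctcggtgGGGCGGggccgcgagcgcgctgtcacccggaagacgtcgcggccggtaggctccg
Zfp473: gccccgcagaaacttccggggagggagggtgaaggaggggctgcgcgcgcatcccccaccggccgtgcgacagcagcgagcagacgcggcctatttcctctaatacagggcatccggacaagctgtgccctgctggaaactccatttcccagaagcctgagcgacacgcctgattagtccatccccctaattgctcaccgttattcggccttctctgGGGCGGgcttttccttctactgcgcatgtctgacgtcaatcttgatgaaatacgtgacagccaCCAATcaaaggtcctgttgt
The Htatip2 window held 3 GC boxes and 27 CpG, the Ush1c window 1 GC box and 9 CpG, and the Zfp473 window 1 GC box, 1 CCAAT box and 20 CpG. Of 32851 promoters of this length in the RefSeq table, 35.7% held a GC box, 37.4% a CCAAT box, 13.6% a TATA box and 7.81% an AP-1 site, and the median CpG count was 7. The table holds 2 starts for Htatip2 and 3 for Zfp473, of which 1 each is shown. Promoter windows were matched for 7 of the 9 genes, and no TATA box lay in any of them.

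The libraries held 20531600 to 24678600 expected counts in all, and 16908 genes were tested. Tph1 itself had 0 counts in each of the 4 KO libraries, against 18, 0, 27 and 11 counts in WT replicates 1 to 4, so the gene did not check the label of WT replicate 2. Leaving out WT replicate 2 together with KO replicate 3 gave Zfp473 a log2 fold change of 2.75, against 2.32 with all libraries, moved those of the other 8 genes by less than the spread between replicates, and lost the call of Tubgcp5. The summed level of 5 keratinocyte marker genes ran from 9416 to 13338 CPM (counts scaled by library size) in KO libraries and from 14616 to 22860 CPM in WT libraries, without overlap, though 0 of the 5 passed the test singly. Of the 14 marker sets examined, this was the only one whose sums did not overlap between groups. Summed skeletal muscle markers ran from 38097 to 71716 CPM in KO libraries and from 9829 to 67644 CPM in WT libraries. They were lowest in WT replicate 3, where the keratinocyte sum was highest. The part of keratinocyte or muscle content in the differences of the 9 genes was not tested. KO replicate 3 stood apart in skin appendage genes, with a summed 1017 CPM for 5 hair follicle markers and 813 CPM for 5 sebaceous gland markers, against at most 97.1 and 236 CPM in the other KO libraries and 144 and 339 CPM in WT libraries. Markers of sperm and testis were near 0 in every library, with Tnp1 and Odf1 at 0 throughout.

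Of the 9 genes, 5 were higher in knockout skin (Ush1c, Zfp473, Gm15545, Cpt1c and Tubgcp5) and 4 were lower (Htatip2, Gm10252, Fut2 and Dkkl1). Each had all 4 KO libraries on one side of all 4 WT libraries. Over all tested genes, 110 were called at an adjusted p under 0.05 (0.651%), with 0.118% called higher and 0.532% called lower, and 11% had groups that did not overlap. The balance of directions over all genes depended on single libraries, with 11 of 19 calls higher without KO replicate 1 and 5 of 8 without KO replicate 2, and DESeq2 called 341 of 984 higher. The 9 genes were chosen by their adjusted p in edgeR's quasi-likelihood test on these same libraries, which ran from 0.00663 for Gm10252 to 0.0432 for Cpt1c. Just outside that threshold in the same stretch was Trpm4, a cation channel gene, with an adjusted p of 0.0538. By distance the nearest of the 9 genes was Ush1c at 0.406 Mb and the farthest Tubgcp5 at 9.12 Mb. The nearest called genes outside those limits were Gtf2h1 at 0.124 Mb and Lsr at 15.7 Mb.

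**Figure D1:**
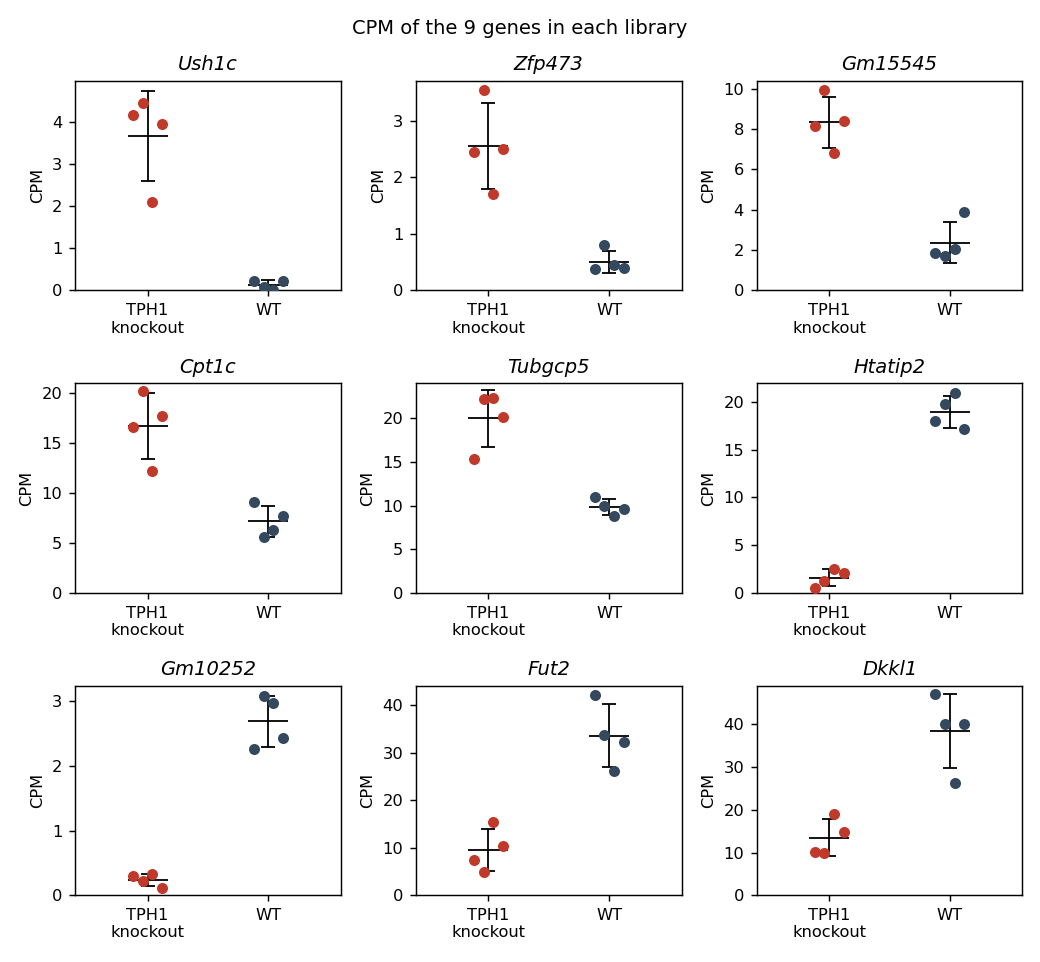
CPM of each of the 9 genes (vertical axes, from 0) in 4 TPH1 knockout and 4 WT libraries, with 1 point per library and bars for the mean and SD. In every panel the 4 KO points lie on one side of the 4 WT points, with Ush1c between 2.09 and 4.46 CPM in KO libraries and at most 0.227 CPM in WT libraries.

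Ush1c (ENSMUSG00000030838, chr7:46195350-46238503, minus strand) encodes harmonin, a PDZ-domain scaffold that ties cadherins to the actin cytoskeleton in the stereocilia of inner ear hair cells and in the intestinal brush border. It was close to silent in WT skin and detectable in knockout skin. KO replicates 1 to 4 held 90, 107, 48 and 87 counts, against 6, 2, 0 and 5 counts in WT replicates 1 to 4. The levels were 3.67 ± 1.07 CPM in knockout and 0.135 ± 0.111 CPM in WT (SD, n = 4 each), and the lowest KO library was 9.22 times the highest WT library. The log2 fold change was 4.68 ± 0.61 (SE), and since the WT side rests on 13 counts in all, its size is loosely set. Without WT replicate 1 it was 5.06 and without WT replicate 3 it was 4.30. The call held in 4 of the 8 fits without 1 library. For all 9 genes, such fits reuse the libraries that chose the genes, so a held call is no independent support. A short predicted gene on the opposite strand, Gm9860, shares 120 exon bases with Ush1c and held 52 counts over the 4 KO libraries and 12 over the 4 WT libraries, too few to test.

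The gene beside Ush1c also had low levels that were higher in knockout, with a smaller fold change. Abcc8, which encodes the sulfonylurea receptor, ends 15.3 kb away and was measured at 1.67, 2.08, 1.87 and 1.78 CPM in KO replicates 1 to 4, against 1.02, 0.489, 0.225 and 0.585 CPM in WT replicates 1 to 4. The groups did not overlap, but Abcc8 did not pass the test (log2 fold change 1.65 ± 0.43 SE, edgeR adjusted p = 0.117). On the other side Myod1, the muscle regulator gene, overlapped between groups (0.59 ± 0.49 SE, edgeR adjusted p = 0.542).

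Genes whose proteins work with harmonin were listed as Usher and brush border partners. Of 14 listed genes 7 were expressed enough to test, and 0 passed (edgeR), with a median log2 fold change of 0.04, against 0.03 over all tested genes. Cdh23, which encodes a stereocilia cadherin that binds harmonin, was at 2.76 CPM in knockout and 0.798 CPM in WT (log2 fold change 1.78 ± 0.42 SE, adjusted p = 0.0972 in edgeR). Myo7a, the myosin VIIa gene, was at 8.73 CPM in knockout and 5.25 CPM in WT (0.73 ± 0.24 SE, edgeR adjusted p = 0.185). Cdh23 and Myo7a each had all KO libraries above all WT libraries without passing. The other 5, Myo5b, Whrn, Cib2, Espn and Adgrv1, overlapped between groups.

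Tubgcp5 (ENSMUSG00000033790, chr7:55794154-55831677, plus strand) encodes a subunit of the gamma-tubulin ring complex, from which microtubules grow. It was higher in knockout skin. The values were 15.4, 22.2, 22.3 and 20.1 CPM in KO replicates 1 to 4, against 10.96, 9.91, 8.85 and 9.63 CPM in WT replicates 1 to 4. KO replicate 1 was the lowest of its group and still 1.40 times the highest WT library. This was a log2 fold change of 1.02 ± 0.16 (SE), or 2.03-fold. The call held in 2 of 8 fits without 1 library, those without KO replicate 1 or 3.

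The nearest tested genes around Tubgcp5 overlapped between groups. Cyfip1, Nipa2 and Nipa1, which lie beside it in mouse and in human, had log2 fold changes of -0.10 ± 0.14, -0.01 ± 0.16 and 0.05 ± 0.28 (SE), with edgeR adjusted p of 0.738, 0.990 and 0.947. Of 13 other genes of the gamma-tubulin complex and its anchors, all tested, 0 passed, with a median log2 fold change of 0.14. The largest was in Pcnt, the pericentrin gene (0.57 ± 0.19 SE, edgeR adjusted p = 0.188). The sister subunit genes Tubgcp3 and Tubgcp6 were at 0.32 ± 0.11 and 0.23 ± 0.10 (SE), with every KO library above every WT library and edgeR adjusted p of 0.206 and 0.258. Tubgcp2 and Tubgcp4 were at 0.10 ± 0.11 and 0.03 ± 0.11.

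Htatip2 (ENSMUSG00000039745, chr7:49759115-49773975, plus strand) encodes TIP30, a small oxidoreductase-like protein studied in human cells as a Tat-interacting protein and a metastasis suppressor. Knockout skin had far less of it than WT skin. KO replicates 1 to 4 held 11, 29, 57 and 46 counts, against 477, 445, 465 and 381 counts in WT replicates 1 to 4. The WT libraries were tight at 19.0 ± 1.69 CPM, while the KO libraries averaged 1.57 ± 0.888 CPM and spread 4.88-fold between the lowest and the highest (SD, n = 4 each). The log2 fold change was -3.59 ± 0.40 (SE), a level 12-fold lower. The call held in 7 of 8 fits that left out 1 library and was lost without KO replicate 2, at -3.48.

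The neighbour of Htatip2 at 4.37 kb, Prmt3, an arginine methyltransferase gene, was at 15.3 ± 1.68 CPM in knockout and 20.7 ± 1.79 CPM in WT (SD, n = 4 each). Its KO libraries all lay below its WT libraries, but it did not pass (-0.44 ± 0.13 SE, edgeR adjusted p = 0.151). Nav2, on the other side, overlapped between groups (0.18 ± 0.12 SE, edgeR adjusted p = 0.440). Of 5 listed genes whose products are reported with TIP30, Kat5, Acsl4, Rab5a, Sh3glb1 and Egfr, 0 passed and 0 had an unadjusted p under 0.05, with a median of 0.16.

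Fut2 (ENSMUSG00000055978, chr7:45648591-45666394, minus strand) encodes the secretor alpha-1,2-fucosyltransferase, which adds fucose to glycans at epithelial surfaces. It was lower in knockout skin. The values were 7.45, 4.99, 15.4 and 10.4 CPM in KO replicates 1 to 4, against 42.2, 33.7, 26.1 and 32.3 CPM in WT replicates 1 to 4. KO replicate 3 was the highest of its group, and the lowest WT library was 1.69 times that value. The log2 fold change was -1.81 ± 0.31 (SE).

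Dkkl1 (ENSMUSG00000030792, chr7:45207519-45212147, minus strand) encodes a secreted relative of the Dickkopf proteins, known from the sperm acrosome. It was also lower in knockout skin. The values were 10.2, 9.99, 19.0 and 14.8 CPM in KO replicates 1 to 4, against 47.0, 40.1, 26.3 and 40.0 CPM in WT replicates 1 to 4. KO replicate 3 was again the highest of its group and WT replicate 3 the lowest of its group, with 1.39-fold between them. Its log2 fold change was -1.51 ± 0.25 (SE).

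Fut2 and Dkkl1 also varied together within each genotype, which the choice of genes did not use. The deviations of log2(CPM + 1) from the genotype mean correlated at Pearson r = 0.91 over the 8 libraries, the highest of the 36 pairs among the 9 genes, where the median was -0.15. This is a description over libraries that share depth and tissue makeup, and it was examined after the values were seen. KO replicate 3 was the highest of the KO libraries for both genes, below every WT library, and it was the highest of all 8 libraries for sebaceous gland, hair follicle and melanocyte markers. The same deviations correlated with the mean level of the 5 sebaceous gland markers at r = 0.87 for Fut2 and 0.78 for Dkkl1. Other marker sets gave values of similar size, at -0.55 and -0.78 for keratinocyte, 0.78 and 0.77 for myeloid and -0.86 and -0.74 for gut epithelium markers (Fut2 first in each). Ush1c, at -0.84, and Htatip2, at 0.77, also varied with the sebaceous markers. The summed sebaceous markers ran from 125 to 813 CPM in KO libraries and from 183 to 339 CPM in WT libraries, and overlapped between genotypes, unlike Fut2 and Dkkl1. The part of the cell makeup in these 2 genes was not tested. Without KO replicate 3, the log2 fold changes stayed within 1 SD of those with all libraries. Of the 8 fits that left out 1 library, the call of Fut2 held in 1, without KO replicate 3, and that of Dkkl1 in 2, without KO replicate 3 or WT replicate 3.

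**Figure D2:**
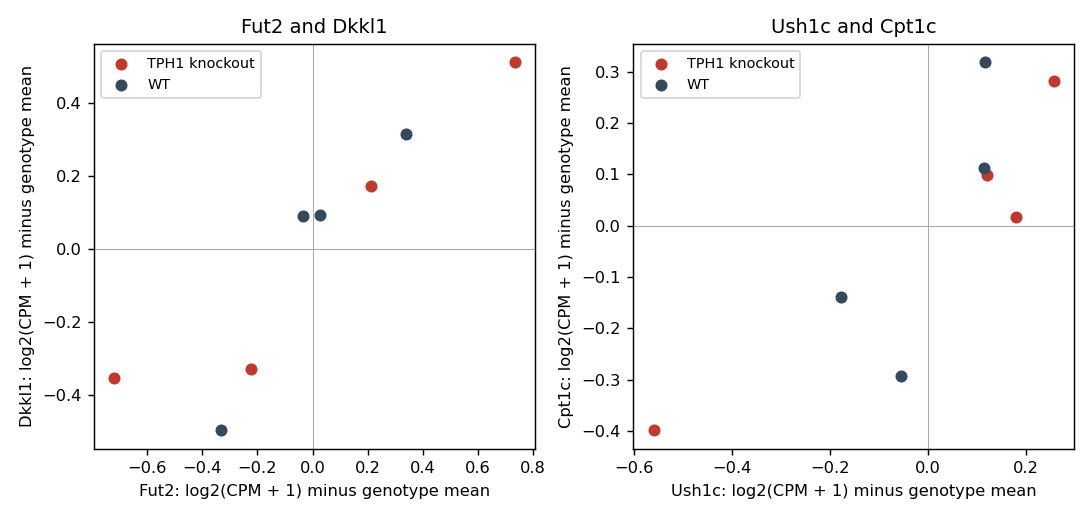
Deviation of log2(CPM + 1) from the genotype mean for Fut2 against Dkkl1 and for Ush1c against Cpt1c, with 1 point per library in 4 TPH1 knockout and 4 WT libraries. Fut2 and Dkkl1 lie near a rising line in both genotypes (r = 0.91), while for Ush1c and Cpt1c (r = 0.84) KO replicate 3 lies lowest on both axes. The WT values of Ush1c rest on at most 6 counts a library.

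No gene listed with Fut2 or Dkkl1 passed the test in edgeR. Of 18 symbols listed for fucosylation, 12 genes were tested and 0 passed, with a median log2 fold change of 0.10. Fut1, the paralogue of Fut2 that makes the H antigen, was at 11.5 CPM in knockout and 13.3 CPM in WT (-0.21 ± 0.23 SE, edgeR adjusted p = 0.662). Fpgt, a gene of the fucose salvage pathway, had the smallest p of the list (0.44 ± 0.15 SE, edgeR adjusted p = 0.192). Of 8 genes for Dickkopf proteins and their receptors, 6 were tested and 0 passed, with a median of -0.07. Dkk2, a Wnt antagonist gene, was at 8.84 CPM in knockout and 17.6 CPM in WT, with every KO library below every WT library (-0.99 ± 0.33 SE, edgeR adjusted p = 0.182). The genes beside Fut2, Mamstr and Car11, and beside Dkkl1, Pih1d1 and Tead2, overlapped between groups, with log2 fold changes from -0.16 for Tead2 to 0.25 for Car11.

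Cpt1c (ENSMUSG00000007783, chr7:44959372-44974851, minus strand) encodes the carnitine palmitoyltransferase isoform best known from neurons, which sits in the endoplasmic reticulum and not in mitochondria. It was higher in knockout skin. The values were 16.7, 20.2, 12.2 and 17.7 CPM in KO replicates 1 to 4, against 9.07, 5.598, 6.34 and 7.74 CPM in WT replicates 1 to 4. KO replicate 3 was the lowest of its group, at 1.35 times the highest WT library. Its log2 fold change was 1.22 ± 0.21 (SE), and the call held in 1 of 8 fits without 1 library, that without KO replicate 3. Within genotypes Cpt1c varied with Ush1c (r = 0.84 over 8 libraries, described after the values were seen), and KO replicate 3 was the lowest KO library for both. The WT part of this r is loosely set, since Ush1c had at most 6 counts in a WT library.

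The mitochondrial relatives of Cpt1c did not pass. Cpt1a, the liver-type enzyme gene, was at 52.0 CPM in knockout and 43.6 CPM in WT (0.25 ± 0.24 SE, edgeR adjusted p = 0.603). Cpt1b, the muscle-type gene, was at 147 CPM in knockout and 88.0 CPM in WT (0.74 ± 0.41 SE, edgeR adjusted p = 0.372), with 5 skeletal muscle markers summing to 38097 to 71716 CPM in KO libraries and 9829 to 67644 CPM in WT libraries. Of 10 genes listed for the carnitine shuttle, all tested, 0 passed, with a median of 0.27. The part of muscle content in that median was not tested. Beside Cpt1c, the clathrin adaptor gene Ap2a1 and the methyltransferase gene Prmt1, at 1.14 kb, overlapped between groups (-0.13 ± 0.12 and -0.24 ± 0.19 SE).

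Zfp473 (ENSMUSG00000048012, chr7:44731480-44751050, minus strand) encodes a C2H2 zinc finger protein that in human cells binds the U7 small nuclear ribonucleoprotein and takes part in histone pre-mRNA processing. It was low in both genotypes and higher in knockout. KO replicates 1 to 4 held 53, 85, 39 and 55 counts, against 10, 18, 10 and 9 counts in WT replicates 1 to 4. The levels were 2.55 ± 0.756 CPM in knockout and 0.508 ± 0.197 CPM in WT (SD, n = 4 each), a log2 fold change of 2.32 ± 0.38 (SE). WT replicate 2 was the highest WT library, and the lowest KO library was 2.12 times its value. The call held in 2 of 8 fits without 1 library, those without WT replicate 2 or KO replicate 3.

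Vrk3, a kinase gene on the opposite strand, shares 205 of the 10037 exon bases of Zfp473. It was at 16.3 ± 1.81 CPM in knockout and 16.6 ± 3.18 CPM in WT (-0.02 ± 0.16 SE, edgeR adjusted p = 0.963). The library kit does not mark strand, so reads that lie wholly in those shared bases cannot be told apart. The expected counts of Zfp473 and Vrk3 were whole numbers in every library, while those of Gm15545 and Gm10252 held fractions. Of 15 genes listed as partners in histone pre-mRNA processing, all tested, 0 passed, with a median of -0.13. Lsm11, whose product is the part of the U7 particle that binds the human protein, was at 14.4 CPM in knockout and 12.02 CPM in WT (0.26 ± 0.13 SE, edgeR adjusted p = 0.324). Its partner Lsm10 was at -0.33 ± 0.19, and Slbp, the stem-loop binding protein gene, at -0.43 ± 0.16 (SE, edgeR adjusted p = 0.376 and 0.210).

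Over the 7 lists, 68 genes were tested and 0 passed in edgeR, while 12 had an unadjusted p under 0.05, or 17.6%, the same percentage as over all 16908 tested genes. DESeq2 called 1 of the 68, Cdh23. Groups did not overlap for 8 of the 68, near the share of 11% over all tested genes. The median absolute log2 fold change of the 68 was 0.20.

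**Figure D3:**
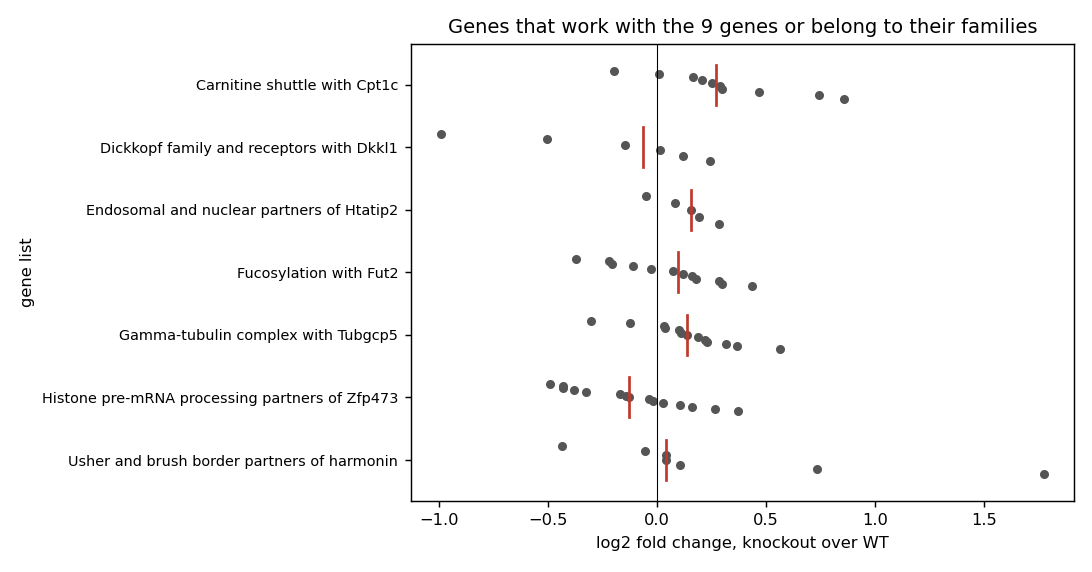
Log2 fold change, knockout over WT (horizontal axis), of each tested gene in 7 lists of partners or family members of the 9 genes, with 1 point per gene and a line at the median of each list. Medians lie between -0.13 and 0.27, and the point farthest to the right is Cdh23 at 1.78.

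Gm15545 (ENSMUSG00000087138, chr7:44986900-44994597, plus strand) is annotated as an antisense RNA gene, and 572 of its 1976 exon bases are also exon of Bcl2l12, a gene of the Bcl-2 family on the opposite strand. It was higher in knockout skin. The values were 8.13, 9.95, 6.83 and 8.41 CPM in KO replicates 1 to 4, against 1.87, 1.69, 2.05 and 3.88 CPM in WT replicates 1 to 4. WT replicate 4 was the highest of its group and still below every KO library. Its log2 fold change was 1.81 ± 0.29 (SE), and the call held in 2 of 8 fits without 1 library, those without WT replicate 4 or KO replicate 3.

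Bcl2l12 went the other way without passing the test, at 8.996 ± 1.05 CPM in knockout and 14.6 ± 2.83 CPM in WT (SD, n = 4 each; -0.70 ± 0.18 SE, edgeR adjusted p = 0.118). The sum of the pair was 17.3 ± 1.93 CPM in knockout and 17.0 ± 3.15 CPM in WT. The share of the pair's CPM given to Gm15545 was 48.0% ± 3.60 in KO libraries and 13.99% ± 4.76 in WT libraries, from 45.0% to 53.2% in knockout and from 8.88% to 20.1% in WT. Without strand information the reads of the 572 shared bases cannot be assigned to either gene by the data, and RSEM divides them by probability. The sum put the pair at a log2 difference of 0.04 on the log2(CPM + 0.5) scale, against 1.81 for Gm15545 alone. In WT libraries that sum was mostly Bcl2l12. The part of the shared reads in the Gm15545 difference was not tested.

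**Figure D4:**
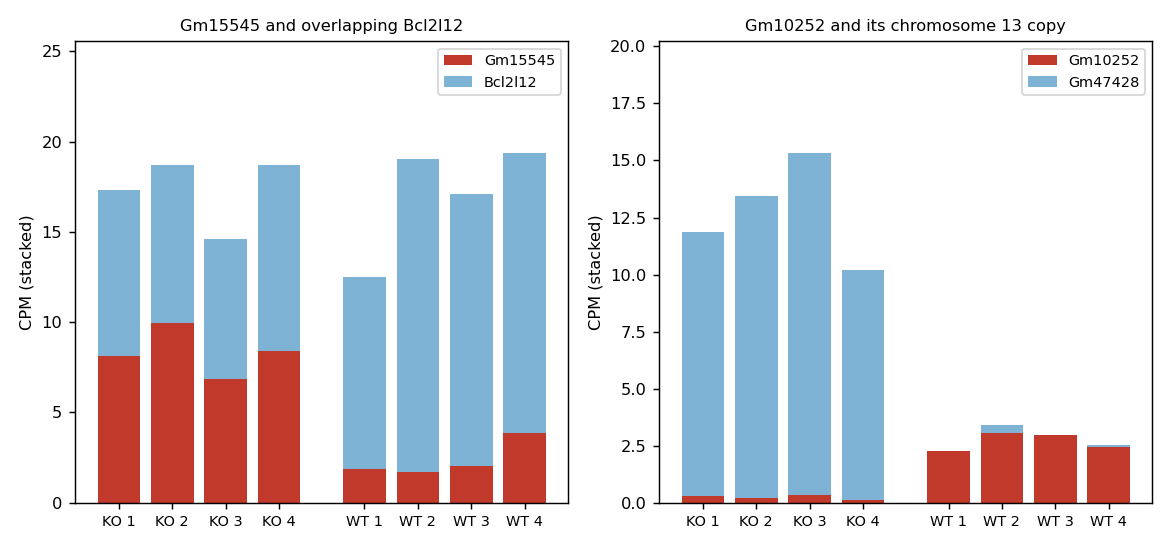
Stacked CPM per library of Gm15545 with the overlapping gene Bcl2l12 (left) and of Gm10252 with its near-identical chromosome 13 counterpart Gm47428 (right), 4 KO and 4 WT libraries. On the left the totals of 14.6 to 18.7 CPM in KO libraries and 12.5 to 19.4 CPM in WT libraries overlap while the Gm15545 part is larger in KO; on the right the totals of 10.2 to 15.3 CPM in KO libraries and 2.26 to 3.43 CPM in WT libraries do not overlap, with most of the KO counts on Gm47428 and most of the WT counts on Gm10252.

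Gm10252 (ENSMUSG00000110350) had the strongest difference by p of the 9 genes and was lower in knockout skin. KO replicates 1 to 4 held 6.43, 5.18, 7.67 and 2.61 expected counts, against 59.8, 69.1, 66.2 and 53.9 in WT replicates 1 to 4. The values are fractions because RSEM split the reads between genes. The levels were 0.242 ± 0.0957 CPM in knockout and 2.68 ± 0.3997 CPM in WT (SD, n = 4 each), a log2 fold change of -3.44 ± 0.37 (SE). The call held in 7 of 8 fits that left out 1 library and was lost without KO replicate 2, at -3.37.

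The partners of Gm10252, shown by sequence above, also differed between genotypes. Ftl1, which shares 355 of the 832 exon bases of Gm10252, was at 99.5 ± 15.6 CPM in knockout and 662 ± 84.0 CPM in WT (-2.73 ± 0.18 SE). Gm47428 was at 11.6, 13.2, 14.98 and 10.1 CPM in KO replicates 1 to 4, against 0, 0.358, 0 and 0.0999 CPM in WT replicates 1 to 4. Ftl1-ps1 was at 263 ± 48.7 CPM in knockout and 21.3 ± 2.23 CPM in WT (3.63 ± 0.17 SE). The sum of Gm10252 and Gm47428 was itself higher, at 12.7 ± 2.19 CPM in knockout and 2.80 ± 0.514 CPM in WT (SD, n = 4 each), without overlap. Of that sum, 1.17% to 2.51% was on Gm10252 in KO libraries and 89.6% to 100% in WT libraries. Gm47428 took the larger part in knockout. The single base T221C is the one difference from Gm10252 in the aligned part of the reference. The base that the knockout libraries carry there was not tested.

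Per length, in TPM, the order of the 9 genes changed between genotypes. In knockout skin Dkkl1 was highest at 23.6 ± 5.27 TPM, followed by Gm15545 at 16.1 ± 2.39, Tubgcp5 at 14.8 ± 2.67, Cpt1c at 9.37 ± 1.59, Fut2 at 5.10 ± 3.74, Ush1c at 2.21 ± 0.542, Htatip2 at 1.73 ± 1.14, Zfp473 at 0.890 ± 0.337 and Gm10252 at 0.455 ± 0.229 TPM (SD, n = 4 each). In WT skin Dkkl1 was highest at 68.2 ± 10.4 TPM, followed by Htatip2 at 20.6 ± 2.94, Fut2 at 18.6 ± 8.06, Tubgcp5 at 6.72 ± 1.35, Gm10252 at 5.07 ± 0.827, Gm15545 at 4.51 ± 1.14, Cpt1c at 4.21 ± 1.63, Zfp473 at 0.198 ± 0.0793 and Ush1c at 0.108 ± 0.109 TPM. Neighbours in these orders mostly overlapped between libraries. The libraries of neighbouring genes stood apart only between Tubgcp5 and Cpt1c in knockout, and between Dkkl1 and Htatip2, Fut2 and Tubgcp5, and Cpt1c and Zfp473 in WT. RSEM's effective length, which moves with the estimated mix of isoforms, overlapped between genotypes for all 9 genes. For Tubgcp5 it ran from 1418 to 2223 bases in KO libraries and from 1396 to 2791 bases in WT libraries. For Ush1c the WT lengths of 1347 to 2624 bases rest on at most 6 counts a library.

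Most tested genes around the 9 were not called. Of the 163 other tested genes at 0.4 to 10 Mb, 5 were called (3.07%), all lower in knockout: Klk8, a kallikrein protease gene, Nup62, a nuclear pore gene, Ftl1, Sult2b1, a cholesterol sulfotransferase gene, and Mrgprb2, a mast cell receptor gene. With RLE scaling 1 of 5 called genes was higher, and DESeq2 called 28 of the 163, 11 of them higher. With the 9 genes the share was 14 of 172, or 8.14%, and it was 1 of 14 (7.14%) under 0.4 Mb, 2.26% of 221 genes at 10 to 20 Mb, 0.859% of 931 genes farther along chromosome 7, and 0.527% of 15570 genes elsewhere or without coordinates. These shares describe the contrast that chose the 9 genes and are not tested. Among the 163 genes, groups did not overlap for 41 (25.2%), against 11% of all tested genes, and the median absolute log2 fold change was 0.42, against 0.26. Their signs were mixed, with 78 above and 85 below 0.

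Of the 17 nearest tested neighbours of the 9 genes, 1 was called, Ftl1, and 4 had an unadjusted p under 0.05. Those 4 were Abcc8, Prmt3, Bcl2l12 and Ftl1, of which Bcl2l12 and Ftl1 share exon bases with Gm15545 and Gm10252. Over all tested genes 0.651% were called and 17.6% had an unadjusted p under 0.05 in edgeR. The same 4 of the 17 had groups that did not overlap, against 11% of all tested genes. The median absolute log2 fold change of the 17 was 0.24, against 0.26 over all tested genes.

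**Figure D5:**
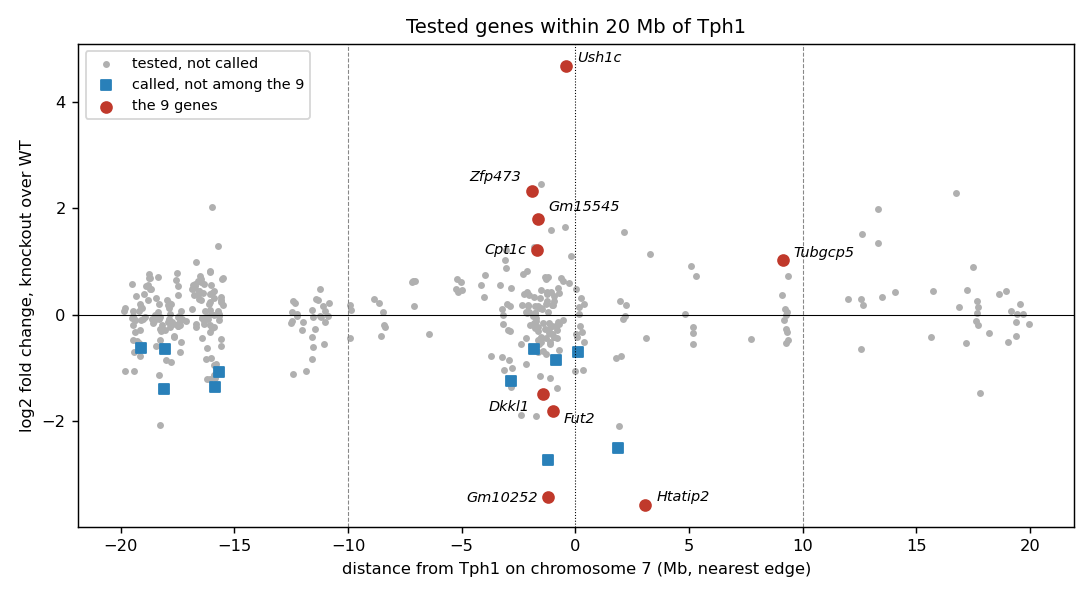
Log2 fold change, knockout over WT (vertical axis), of each tested gene within 20 Mb of Tph1 against its distance from Tph1 in Mb (horizontal axis, negative at lower coordinates); dashed lines mark 10 Mb. The 9 genes (red) lie above and below 0, from -3.59 for Htatip2 to 4.68 for Ush1c. Of the 163 other tested genes at 0.4 to 10 Mb, 13.5% had an absolute log2 fold change over 1, against 5.65% of all tested genes. The 5 other called genes inside the dashed lines beyond 0.4 Mb are below 0 in this fit, while DESeq2 called 11 genes higher there.

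Genes with the most similar pattern, at any location, were found by Pearson r of log2(CPM + 1) over the 8 libraries. Tested genes with a mean of at least 1 CPM were searched. Such r values follow mostly from the difference between genotypes and are descriptions. The genes most like Ush1c were Ftl1-ps2 on chromosome 10 (r = 0.99) and Zfp317, the one given for Htatip2 was Otop3, and those most like Zfp473 were Zscan22 and Jrkl. For Fut2 they were Agpat4 and Ctsh, for Dkkl1 Them5 and Ifitm6, for Tubgcp5 Etaa1 and Zfp39, and for Cpt1c Gm37893 and Zfp317. For Gm15545 they were Pnrc2 and Pfas, and for Gm10252 Mapk3 and Ftl1 (r = 0.99 each). Ftl1 lies in the same stretch, at 1.18 Mb from Tph1, and shares exon bases with Gm10252.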

How the data were processed

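Per the labels' protocols, RNA was extracted from dorsal skin with an RNeasy kit and libraries prepared with the NEBNext Ultra RNA kit, whose reads carry no strand. The submitters' processing notes list STAR 2.7.6a, RSEM 1.31, DESeq2, DESeq and build GRCm38 and state no roles. Ensembl release 101 is named in the labels. The deposited expected counts are RSEM's estimated reads per gene, not normalized. The deposited TPM values are scaled to effective length and library, and the deposited FPKM values, unused here, to length and fragments, per the file headers. The authors' matrix of 17382 genes is normalized signal (DESeq2, per the labels) and gave 1 alternative scale.

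Expected counts were rounded to whole numbers, then fitted in edgeR 4.0.16 (R 4.3.3): filterByExpr (minimum count 10, minimum total 15), TMM, robust quasi-likelihood F test on genotype, Benjamini-Hochberg adjustment over 16908 genes, called under 0.05. The log2 fold change is knockout over WT, and its SE was taken as |log2 fold change| over the root of F. Library sizes for CPM are TMM-scaled. The fit was also run on simulated counts, with no outlying library simulated, and the outcome is not reported here. Alternatives were DESeq2 1.42.0, other scalings and filters, effective length as an offset, and leaving out libraries. Partners with at least 90% identity over 200 bases came from BLAST 2.17.0 on GENCODE M21 transcripts, which also gave coordinates, and promoters from RefSeq.

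The genes and lists were chosen with earlier results of these data known. Named genes were the 9 genes, Tph1, the nearest tested neighbours, other called genes at 0.4 to 10 Mb, BLAST partners, the 2 genes most alike (1 of them, for Htatip2, is not reported here), and listed genes with the smallest p or of the same family. Trpm4, Gtf2h1 and Lsr were named after their values were seen, to mark the limits. Replicate numbers follow record order and pair no libraries.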

Additional observations from a re-analysis of the deposited data

Results flagged for a closer look

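Among the 18 sets of 4 libraries examined (9 genes in 2 genotypes), 2 held a library far from the other 3, where chance flags about 1 set in 20. Zfp473 was at 0.800 CPM in WT replicate 2, and the next highest WT library was at 0.449 CPM, a gap of 0.831 of the range of the group. Gm15545 was at 3.88 CPM in WT replicate 4, with the next highest WT library at 2.05 CPM, a gap of 0.834 of the range.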

How the results depend on the processing

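Of 165 recomputed log2 fold changes of the 9 genes, 0 changed sign, 151 moved by less than 1 SD between replicates and 14 moved further. The 9 genes were chosen by this contrast and had groups that did not overlap, so a change of sign was unlikely from the start. Summed with overlapping or near-identical partners, Zfp473 was at 0.15, Gm15545 at 0.04 and Gm10252 at -0.88. The Zfp473 sum was mostly Vrk3, at 16.3 CPM in knockout and 16.6 CPM in WT, against 2.55 and 0.508 CPM for Zfp473. The Gm10252 sum was mostly Ftl1 and Ftl1-ps1. Both sums therefore follow mainly the partners and say little of Zfp473 and Gm10252 themselves. The Gm15545 sum was mostly Bcl2l12 in WT libraries. On the log2(TPM + 1) scale, which shrinks low genes, Ush1c was at 1.52, Zfp473 at 0.64 and Gm10252 at -2.06. Fits without 1 library reuse the libraries that chose the 9 genes, so held calls describe the fits and are no independent support. In these fits, all 9 calls held without KO replicate 3. Those of Htatip2 and Gm10252 were lost without KO replicate 2 alone. Ush1c also held without WT replicate 1, 2 or 3, Zfp473 without WT replicate 2, Dkkl1 without WT replicate 3, Gm15545 without WT replicate 4 and Tubgcp5 without KO replicate 1, and the other such fits lost the call. DESeq2 called all 9, library totals only lost Zfp473, Cpt1c, Fut2, Tubgcp5, Dkkl1 and Gm15545, and the length offset lost Zfp473, Cpt1c and Fut2. The count of genes called was 110 over all tested genes, 5 among other genes at 0.4 to 10 Mb and 0 in the 7 lists. With library totals only it was 27 and 2, with the DESeq2 Wald test 984, 28 and 1, and without WT replicate 2 and KO replicate 3 together, an alternative added after seeing the data, 167 over all tested genes. Among the other genes at 0.4 to 10 Mb it was 8 without a filter and 3 with effective length as an offset. Without 1 library the counts ran from 8 (without KO replicate 2) to 170 (without KO replicate 3) over all tested genes, from 1 to 7 at 0.4 to 10 Mb, and stayed at 0 in the lists. The causes were not tested. No paired analysis was possible because the labels give the genotypes no shared replicate numbers. Depth limits Ush1c, with 13 WT counts in all, and Gm10252, with at most 7.67 expected counts in a KO library.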
